A study of Homo sapiens with 18 samples.

Results

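The zinc finger genes of the long arm of chromosome 19 were described as a group of 164 genes in HCC827 and H1975, a pair of long-established human lines from lung adenocarcinomas with mutant EGFR. A gene belonged to the group when GENCODE annotated it as protein-coding on chromosome 19 of GRCh38 with a start at base 26000000 or beyond and its symbol was ZNF followed by a digit. The 164 genes are part of 835 protein-coding genes beyond that base, which leaves 671 others, and of 60849 genes listed in all. The rule itself uses name and position, but the group was chosen by the difference between HCC827 and H1975 that these counts had already shown. The differences between the lines are therefore given as a description, and for the members single p-values are given only in the comparisons between platforms. At the edge of the rule lie ZNF726 and ZNF254 just outside (starts 23914876 and 24033405, log2 folds of HCC827 over H1975 of -2.14 and -1.52 on Illumina), and ZNF536 and ZNF507 just inside (starts 30224891 and 32345594). ZNF507 had a log2 fold of 0.03 on Illumina, and ZNF536 had too few Illumina reads to be tested.

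Each line was represented by 3 RNA samples from cells grown independently, with no treatment given, and each sample was sequenced on Illumina, Oxford Nanopore (ONT) and PacBio, so that 18 libraries form 6 groups of 3. Illumina libraries were directional and read as 75 nt pairs from 3.75 ng of mRNA, ONT libraries were cDNA amplified over 14 cycles from 1.5 ng of mRNA, and PacBio Iso-Seq libraries were size-selected and amplified over 12 cycles. Each line comes from 1 tumour and no other genotype or treatment is given, so a difference between them belongs to the pair of lines as a whole. In these bulk samples fewer cells that express a gene and less RNA per cell cannot be told apart.

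Gene totals were 81467393 to 116497461 counts in ONT libraries and 33362018 to 40200473 in Illumina libraries, apart from 10020699 in Illumina HCC827 replicate 2, and 37795 to 54339 in PacBio libraries. All 164 genes were listed on every platform, and 27 of them had no PacBio count. The epithelial markers CDH1, EPCAM, KRT8, KRT18 and KRT19 lay between 228 and 3002 CPM (counts per 1000000 counted) in HCC827 and between 245 and 898 CPM in H1975 on Illumina, whereas the blood cell genes PTPRC, CD3E and LYZ reached at most 0.154 CPM in HCC827 and 0.149 CPM in H1975. Of the other blood cell markers, CD14 had 0.622 CPM in HCC827 and 5.83 CPM in H1975, and CD79A had 2.14 and 5.98 CPM. Among mesenchymal markers, VIM, FN1, ZEB1 and CDH2 had 53.5, 390, 4.11 and 0.173 CPM in HCC827 and 1370, 2072, 17.85 and 0.310 CPM in H1975. Endothelial markers (PECAM1, VWF and CDH5) reached at most 1.45 CPM in HCC827 and 4.09 CPM in H1975. The lung markers NKX2-1, NAPSA and SFTPB had 78.9, 136 and 2.95 CPM in HCC827 and 28.5, 1.96 and 1.58 CPM in H1975, and the surfactant gene SFTPC had no count in HCC827 and 0.0644 CPM in H1975. The HCC827 libraries differed among themselves more than the H1975 libraries did: the mean chi-square per gene between replicates was 15.6 to 69.6 in HCC827 against 3.30 to 3.81 in H1975 on Illumina, and 49.4 to 116 in HCC827 against 10.6 to 19.5 in H1975 on ONT. On PacBio, the distance was smaller than sampling noise between HCC827 replicates 1 and 2 (0.671) and between H1975 replicates 2 and 3 (0.539). HCC827 replicate 3 stood apart from its group on PacBio (4.09 and 4.56).

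C2H2 zinc finger proteins bind DNA through tandem fingers, each held by a zinc ion, and the ZNF genes of chromosome 19 arose largely by repeated local duplication, which left them in clusters along the arm. Many carry a KRAB box near the amino terminus. In such proteins the fingers choose the site, often within a transposable element, and the KRAB box recruits TRIM28 (KAP1), which brings the histone methyltransferase SETDB1 and heterochromatin proteins to it. In tumours the promoters of several of these genes are known to be methylated.

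Promoter windows were read for 144 of the 164 genes from RefSeq on GRCh38.p14, each running from 250 bases before to 50 bases after an annotated start. They held a median of 23 CG dinucleotides, against 14 over all 35116 promoter windows, and 97.9% of them held 10 or more against 56.4% of all windows. The 117 windows of genes called lower in HCC827 and the 14 of genes called higher had the same median of 23. The windows below belong to 3 of the 4 genes with the largest Illumina falls in HCC827 (the window of ZNF534, with 20 CG, is not shown) and to 2 of the genes that were higher there; capitals mark each CG, the site of DNA methylation. They hold 22 CG in ZNF841 (chr19:52095716-52096015, minus strand), 27 in ZNF432 (chr19:52048789-52049088, minus), 14 in ZNF154 (chr19:57709155-57709454, minus), 31 in ZNF574 (chr19:42075916-42076215, plus) and 23 in ZNF581 (chr19:55643399-55643698, plus). CG counts in both directions of change thus overlapped, and no methylation was measured here.
ZNF841: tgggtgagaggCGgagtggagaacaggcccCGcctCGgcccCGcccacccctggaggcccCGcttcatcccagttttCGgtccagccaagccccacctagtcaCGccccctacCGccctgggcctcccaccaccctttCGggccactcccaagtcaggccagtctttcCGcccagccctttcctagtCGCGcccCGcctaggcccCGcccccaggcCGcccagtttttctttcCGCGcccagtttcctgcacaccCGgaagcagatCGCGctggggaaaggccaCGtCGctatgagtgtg
ZNF432: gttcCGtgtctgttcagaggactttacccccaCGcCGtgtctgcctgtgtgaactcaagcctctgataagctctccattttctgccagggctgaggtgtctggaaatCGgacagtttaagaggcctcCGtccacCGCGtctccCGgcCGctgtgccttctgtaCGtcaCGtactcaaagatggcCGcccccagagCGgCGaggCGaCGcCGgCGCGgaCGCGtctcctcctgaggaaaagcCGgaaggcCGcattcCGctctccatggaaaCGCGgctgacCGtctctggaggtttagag
ZNF154: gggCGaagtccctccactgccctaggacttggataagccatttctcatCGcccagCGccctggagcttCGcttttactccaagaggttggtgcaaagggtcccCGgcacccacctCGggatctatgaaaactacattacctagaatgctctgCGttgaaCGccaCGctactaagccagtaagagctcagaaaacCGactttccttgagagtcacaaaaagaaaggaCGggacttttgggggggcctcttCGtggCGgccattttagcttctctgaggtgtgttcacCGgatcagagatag
ZNF574: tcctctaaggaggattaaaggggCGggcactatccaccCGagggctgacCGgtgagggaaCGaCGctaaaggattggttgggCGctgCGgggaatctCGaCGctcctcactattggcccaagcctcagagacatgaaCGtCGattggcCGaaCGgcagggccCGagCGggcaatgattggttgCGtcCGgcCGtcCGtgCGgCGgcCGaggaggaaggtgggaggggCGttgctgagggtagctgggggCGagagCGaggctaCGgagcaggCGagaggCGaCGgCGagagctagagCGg
ZNF581: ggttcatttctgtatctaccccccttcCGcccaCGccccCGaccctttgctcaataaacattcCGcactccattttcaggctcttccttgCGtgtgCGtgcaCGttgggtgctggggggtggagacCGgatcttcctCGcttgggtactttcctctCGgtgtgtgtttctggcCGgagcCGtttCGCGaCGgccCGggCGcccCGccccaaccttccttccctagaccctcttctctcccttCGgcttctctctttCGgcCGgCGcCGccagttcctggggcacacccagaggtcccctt

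Taken as a sum, transcripts of the 164 genes were scarcer in HCC827 on every platform. On Illumina they made up 1778, 1669 and 1566 CPM of all gene counts in HCC827 replicates 1, 2 and 3, against 5332, 5549 and 5503 in H1975. On ONT the sums were 537, 629 and 524 CPM in HCC827, against 1457, 1445 and 1475 in H1975. On PacBio they were 2264, 2396 and 1349 in HCC827, against 6206, 8385 and 7492 in H1975. The lines did not overlap on any platform, and the sample with the fewest Illumina reads lay between the other HCC827 samples. The PacBio sums rest on 51 to 123 counts per HCC827 library and 256 to 445 counts per H1975 library.

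**Figure D1:**
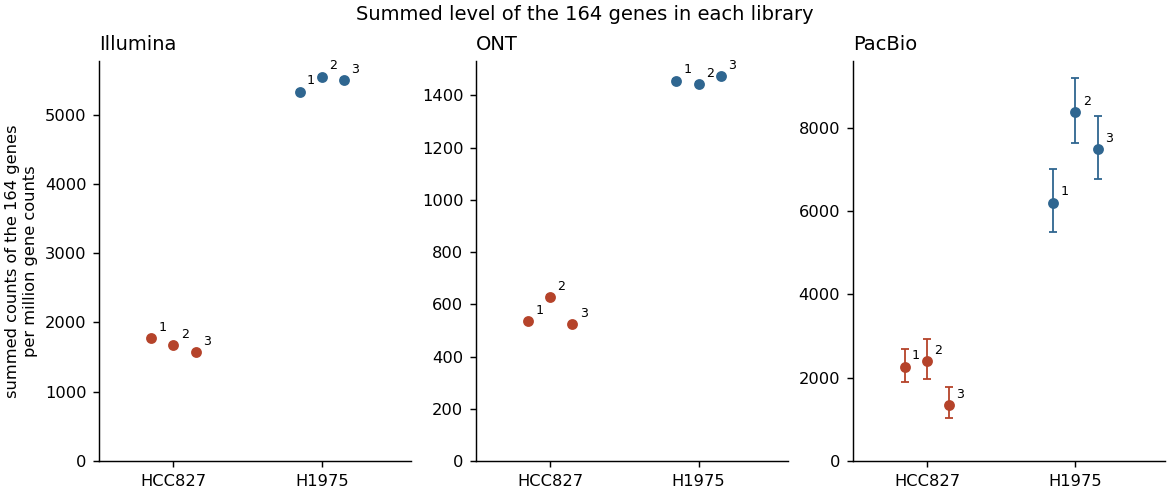
Summed counts of the 164 zinc finger genes as CPM of all gene counts (y axis) in each library of HCC827 and H1975, in 1 panel per platform; points are libraries, numbers are replicates and bars are 95% Wilson intervals, which cover counting error only. All 3 HCC827 libraries lie below all 3 H1975 libraries on each platform; PacBio HCC827 replicate 3 is the lowest of its group, at 1349.

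Most genes of the group were lower in HCC827. On Illumina 162 genes had enough reads to be tested: 134 were called lower in HCC827 (adjusted p below 0.05 by edgeR over all genes, which calls 38.0% of 25711 tested genes lower), 17 were called higher (background 36.1%) and 11 were not called. Their median log2 fold was -1.47, against -0.04 over all tested genes, and the single folds ran from -4.83 to 2.37. On ONT, again with 162 tested, 119 were called lower (background 31.6%), 9 higher (background 31.1%) and 34 were not called; the median was -1.34 against -0.02 over all tested genes. Without regard to any test, all 3 HCC827 libraries lay below all 3 H1975 libraries in 136 genes on Illumina and in 124 on ONT, and above them in 18 and in 10. How often all tested genes separate in this way was not counted, so nothing is read from these counts. Called either way were 74.1% of all tested genes on Illumina and 62.7% on ONT, so a call alone is common between these lines. Because the group was proposed on this difference, nothing is read from the distance to the background. ZNF835 had no Illumina count in any library and ZNF792 was below the ONT filter, so these and ZNF536 are missing from a platform.

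More of the other genes of the arm were higher in HCC827 than lower. Of the other protein-coding genes of 19q, 498 were tested on Illumina: 296 were higher in HCC827 and 136 lower, with a median log2 fold of 0.69. On ONT 263 of 515 were higher and 133 lower, with a median of 0.59. ZNF genes elsewhere gave a graded picture: on Illumina 76 of 83 tested ZNF genes of 19p were lower in HCC827 and 4 higher (median -1.87), whereas of 247 ZNF genes of other chromosomes 125 were lower and 70 higher (median -0.34). On ONT the corresponding medians were -1.64 over 84 genes and -0.14 over 248 genes. Zinc finger genes of 19q with other kinds of name, such as ZFP28, ZIK1 and ZSCAN18, were lower in HCC827 in all 14 tested cases on Illumina (median -1.27) and in 10 of 13 on ONT, where 1 was higher and 2 were not called (median -1.46). They include PEG3, a paternally expressed imprinted gene, which had no Illumina count in any HCC827 library against 10.6 ± 0.0802 CPM in H1975 (SD, n = 3), and its imprinted neighbour ZIM2, with 0.0389 ± 0.0673 CPM in HCC827 and 14.8 ± 0.461 CPM in H1975. ZSCAN1 went different ways on the platforms, with log2 folds of -0.43 ± 0.16 on Illumina (standard error) and 0.87 ± 0.17 on ONT.

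The size of the fold varied along the arm. Members were grouped into 11 runs, a run ending where neighbouring starts lay over 1000000 bases apart. Of the runs with over 2 members, the deepest median lay in the run ZNF175 to ZNF331 (chr19:51571283-53580269): all 40 members were called lower in HCC827 on Illumina, with a median log2 fold of -2.43 and a range of -4.83 to -0.74, and on ONT 39 of 40 were, with a median of -2.18. Summed over the run, Illumina levels were 359, 272 and 269.9 CPM in HCC827 against 2448, 2546 and 2481 in H1975. Of 8 other protein-coding genes in that interval 5 were lower and 1 higher on Illumina, with a median of -1.97. That median was -0.56 over the 5 of them with a mean of 1 CPM or more, and -0.73 on ONT, where 3 of 6 were lower and 1 higher.

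The run ZNF575 to ZNF296 (chr19:43525497-45076478) had 20 of 24 members lower and 3 higher in HCC827 on Illumina, with a median of -1.62, and 19 lower and 1 higher on ONT, with a median of -1.57. Of 25 other genes tested there on Illumina, 10 were lower and 11 higher, and their median was -0.16. The run ZNF565 to ZNF573 (chr19:36182276-37817300) held smaller folds: 23 of 26 members were lower and 1, ZNF875, was higher on Illumina, with a median of -0.81, and on ONT 17 were lower and 2 higher, with a median of -0.58. Its medians were thus smaller in size than those of the run ZNF175 to ZNF331. The other genes tested in the run ZNF565 to ZNF573, which include ZFP30 and ZFP82, were lower as well. On Illumina 5 of 5 were lower (median -0.66), and on ONT 4 of 5 (median -0.82).

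The last run, ZNF628 to ZNF446 (chr19:55476617-58481230), held 59 members, of which 58 were tested on Illumina: 45 were lower and 6 higher in HCC827, with a median of -1.33; on ONT 41 were lower and 4 higher, with a median of -1.23. This median hid unlike stretches. When a gap of 500000 bases ended a run, its first 16 members were ZNF628 to ZNF835 (chr19:55476617-56671783). Their median was -0.11 on Illumina, with 6 higher, 6 lower and 3 not called. On ONT it was 0.16, with 4 higher and 5 lower. The direction changed within these 16 members: on Illumina the 6 higher lay from ZNF628 to ZNF787 and the 6 lower from ZNF582 to ZNF71. ZNF787 and ZNF444 had Illumina log2 folds of 0.56 and 0.19, and the next members, ZNF582 and ZNF583, had -2.55 and -1.76. The remaining 43 members of the last run, ZNF264 to ZNF446 (chr19:57191500-58481230), had medians of -1.45 on Illumina and -1.31 on ONT. Of them 39 were lower on Illumina and 36 on ONT, and none was higher on either. The other genes of that interval, which include ZIK1 and ZSCAN18, fell about as much. On Illumina 21 of 22 were lower and 1 higher (median -1.36), and on ONT 16 of 21 were lower and 2 higher (median -1.23). Outside the large runs, ZNF574 and ZNF526 were higher in HCC827 on both platforms (medians 2.28 and 2.20), and the pair ZNF541 and ZNF114 was lower on both (medians -4.18 and -3.29).

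**Figure D2:**
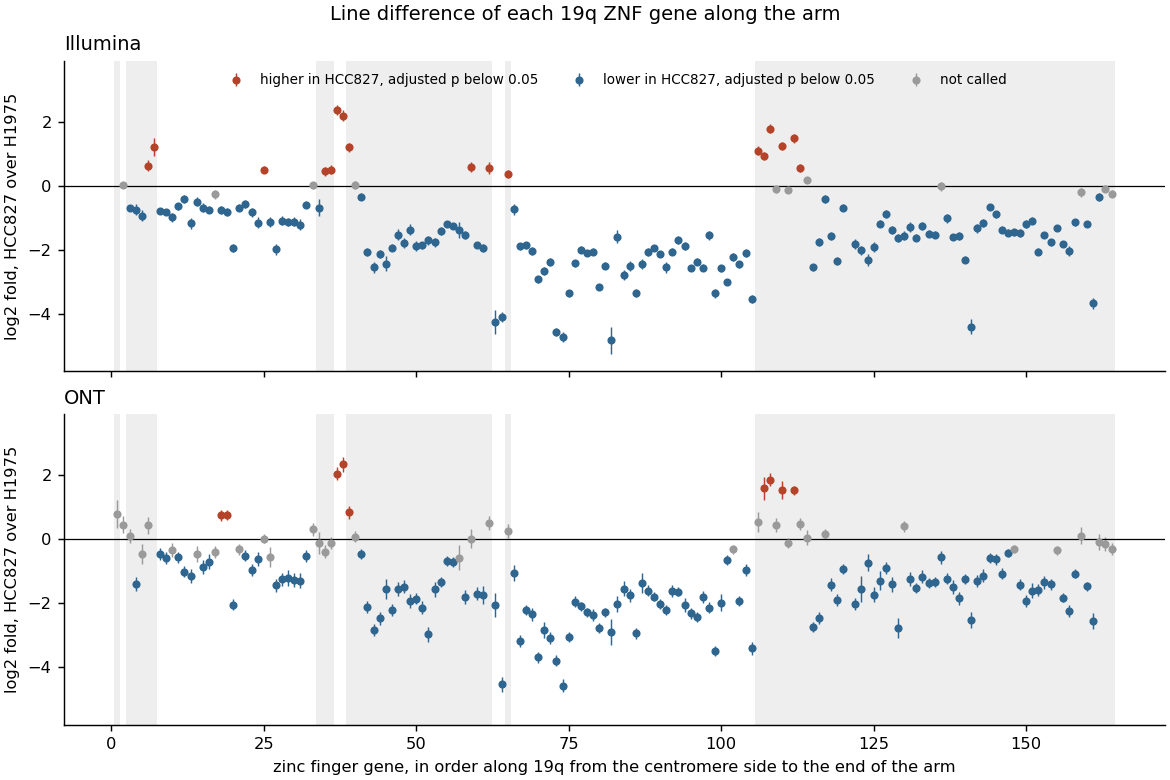
Log2 fold of HCC827 over H1975 (y axis) of each of the 164 genes in order along 19q (x axis, gene rank), with Illumina above and ONT below; bars are standard errors, colours give the call and grey and white bands mark the 11 runs of neighbouring genes. All 40 Illumina folds in the run ZNF175 to ZNF331 (ranks 66 to 105) lie below 0, and the highest points belong to ZNF574 and ZNF526.

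The members with the largest falls in HCC827 came mainly from the run ZNF175 to ZNF331. ZNF841 (chr19:52064465-52095765, minus strand), a KRAB gene with 20 fingers whose promoter is printed above, had 6.51, 6.99 and 4.37 CPM in HCC827 on Illumina, against 142, 163 and 154 CPM in H1975. On ONT it had 0.517, 0.366 and 0.367 CPM in HCC827 against 9.38, 10.3 and 10.5 CPM in H1975. The lines were far apart on both platforms, with log2 folds of -4.73 ± 0.15 on Illumina and -4.58 ± 0.20 on ONT. ZNF432 (chr19:52031378-52095738, minus strand), a KRAB gene with 16 fingers whose annotated body spans ZNF841 on the same strand, had 12.6, 11.0 and 9.07 CPM in HCC827 against 245, 271 and 255 CPM in H1975 on Illumina. Reads of these overlapping genes may be shared, so their near-equal folds (-4.56 ± 0.13 for ZNF432) may not be separate measurements. On ONT ZNF432 had a log2 fold of -3.80 ± 0.17. ZNF534 (chr19:52429148-52452315, plus strand), a KRAB gene reported to act on HERVH elements in stem cells, was nearly silent in HCC827, with 0.0288, 0 and 0.102 CPM on Illumina, against 1.45, 1.89 and 1.65 CPM in H1975. It had 1, 0 and 3 counts in those HCC827 libraries, so its fold of -4.83 ± 0.43 is loosely set, and on ONT it was -2.90 ± 0.42.

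ZNF331 (chr19:53519527-53580269, plus strand), an imprinted KRAB gene that ends the same run and overlaps no annotated gene, had 2.68, 2.68 and 2.20 CPM in HCC827 on Illumina, against 29.3, 28.4 and 29.1 CPM in H1975. Its libraries within a line nearly coincided, and its log2 fold was -3.54 ± 0.12 on Illumina and -3.42 ± 0.19 on ONT. ZNF616 (chr19:52113091-52139938), with 21 fingers, had 8.32, 6.88 and 7.04 CPM in HCC827 against 76.0, 76.9 and 78.2 CPM in H1975, a log2 fold of -3.36 ± 0.11. ZNF350 (chr19:51964340-51986856), also called ZBRK1 and known as a repressor that binds BRCA1, had 5.56, 4.2 and 4.74 CPM in HCC827 against 36.9, 37.6 and 39.2 CPM in H1975. Its log2 folds were -2.93 ± 0.12 on Illumina and -3.70 ± 0.17 on ONT. ZNF808 (chr19:52527652-52564464), a KRAB gene with 23 fingers needed for human pancreas development, shared 10.5% of its 75-base words with other transcripts; its fold was -2.80 ± 0.15 on Illumina and -1.55 ± 0.23 on ONT.

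Outside that run, ZNF114 (chr19:48270081-48287608, plus strand) had 3.20, 1.63 and 3.01 CPM in HCC827 on Illumina, against 54.2, 47.2 and 46.6 CPM in H1975. On ONT it had 1.77, 1.55 and 0.931 CPM in HCC827, against 35.6, 33.4 and 30.0 CPM in H1975, and its folds were -4.10 ± 0.15 and -4.53 ± 0.23. This gene carries only 3 fingers. ZNF541 (chr19:47520690-47573148, minus strand), a gene of meiotic germ cells, was low in both lines: 0.144, 0.117 and 0.0338 CPM in HCC827 against 2.20, 1.78 and 1.75 CPM in H1975 on Illumina. ZNF154 (chr19:57696275-57709204, minus strand), known for promoter methylation in many tumour types, had 1.01, 0.350 and 0.406 CPM in HCC827 against 12.7, 15.5 and 15.1 CPM in H1975. HCC827 replicate 1 was the highest of its group, yet stayed far below every H1975 library. ZNF132 (chr19:58432814-58440153, minus strand), another gene known to be methylated in tumours, had 1.04, 0.816 and 0.677 CPM in HCC827 against 11.0, 11.2 and 11.0 CPM in H1975.

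Members known for methylated promoters in tumours were listed together: ZNF132, ZNF154, ZNF331, ZNF382, ZNF471, ZNF568, ZNF582, ZNF667, ZNF671, ZNF677 and ZNF793. All 11 were lower in HCC827 on Illumina, with a median log2 fold of -1.94, and on ONT 10 of 11 were, with a median of -2.04; the exception was ZNF667, at 0.16. Of all tested members 82.7% were lower on Illumina and 73.5% on ONT, and of all tested genes 38.0% and 31.6%, so nothing is read from this count. ZNF677 had 5.01, 3.38 and 5.58 CPM in HCC827 on Illumina, against 49.1, 50.4 and 52.8 CPM in H1975. ZNF582 (chr19:56375846-56393538, minus strand) had 13.3, 13.3 and 10.6 CPM in HCC827, against 65.7, 76.4 and 74.0 CPM in H1975. Neither gene overlapped between the lines. ZNF382, a KRAB repressor described as a tumour suppressor, differed less: 2.74, 1.63 and 2.30 CPM in HCC827 against 5.72, 5.61 and 4.70 CPM in H1975, a log2 fold of -1.17 ± 0.17.

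A smaller set was higher in HCC827, and the 7 genes called so on both platforms are given here. ZNF574 (chr19:42068477-42081552, plus strand), with 18 fingers and no KRAB pattern, had 25.7, 38.5 and 33.6 CPM in HCC827 on Illumina, against 5.60, 6.07 and 6.96 CPM in H1975. On ONT it had 3.27, 4.37 and 3.25 CPM in HCC827, against 0.818, 0.902 and 0.904 CPM in H1975; the folds were 2.37 ± 0.14 and 2.05 ± 0.19. The lines did not overlap on either platform. Its neighbour ZNF526 (chr19:42220292-42228201, plus strand) had 16.8, 28.9 and 23.6 CPM in HCC827 against 5.53, 4.74 and 4.57 CPM in H1975, with folds of 2.19 ± 0.17 and 2.34 ± 0.23. Both overlap genes on the opposite strand, ZNF574 with GRIK5 and ZNF526 with GSK3A.

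In the interval ZNF628 to ZNF835, ZNF524 (chr19:55600022-55603138, plus strand), a protein known to bind telomeric repeats, had 28.5, 38.6 and 41.3 CPM in HCC827 on Illumina against 11.0, 9.55 and 10.7 CPM in H1975. ZNF581 (chr19:55635459-55645623, plus strand) had 124, 192 and 162 CPM in HCC827, against 55.6, 57.0 and 57.6 CPM in H1975. Per kilobase of exon it stood highest of the group in HCC827 on Illumina, at 97.3 CPM per kb; in H1975 it had 34.7 CPM per kb, below ZNF432 (42.9) and ZNF841 (35.7). In ZNF581 16.7% of the 75-base words recur elsewhere and it overlaps ZNF580 and CCDC106. ZNF784 had 10.1, 13.2 and 13.3 CPM in HCC827 against 4.83, 5.20 and 5.24 CPM in H1975, and overlaps no gene. ZNF579 had 66.1, 88.8 and 76.6 CPM in HCC827 against 39.6, 37.7 and 43.6 CPM in H1975 on Illumina. On ONT its HCC827 libraries were spread, at 7.41, 18.7 and 5.72 CPM against 3.49, 3.48 and 3.65 CPM in H1975, with replicate 2 the highest. Replicate 2 was also the highest HCC827 library on ONT for ZNF524, ZNF526, ZNF574, ZNF581 and ZNF784. ZNF575 (chr19:43525497-43536130, plus strand), at the start of the run that ends with ZNF296, had 9.04, 8.63 and 10.5 CPM in HCC827 against 4.49, 3.98 and 3.93 CPM in H1975.

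**Figure D3:**
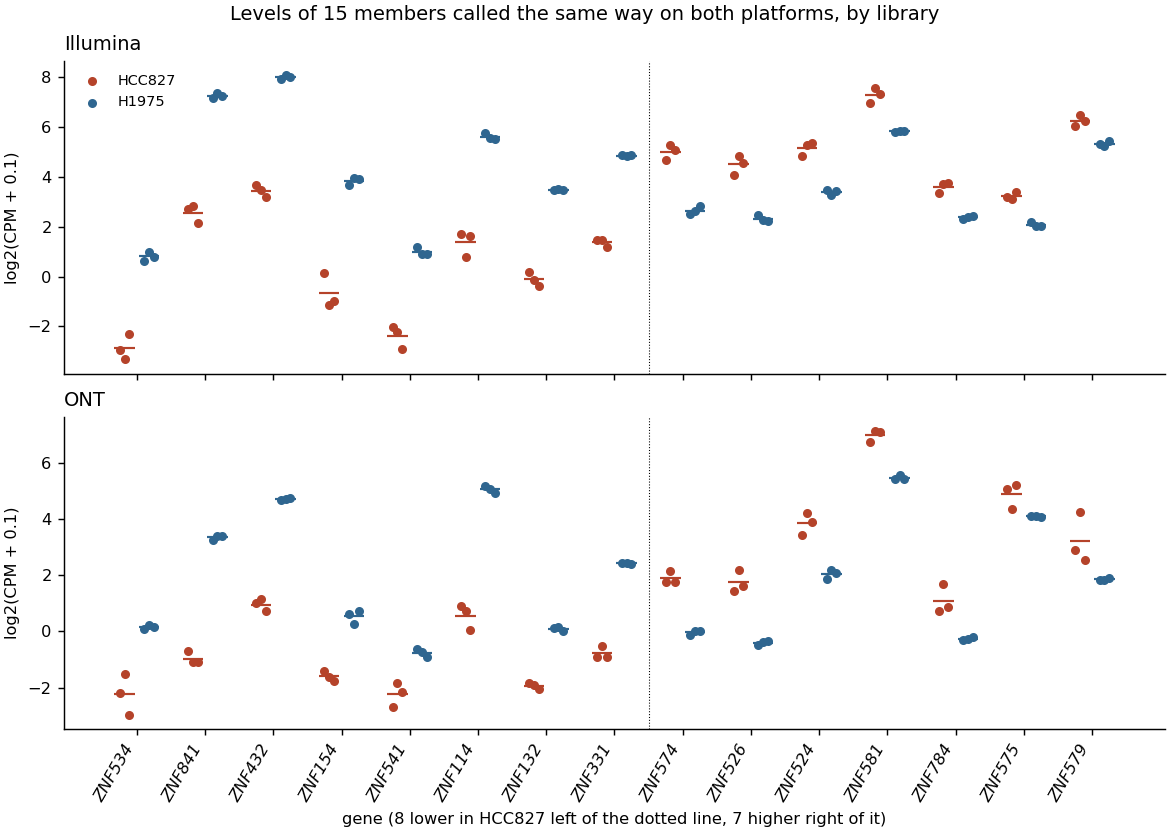
Level of 15 genes called the same way on both platforms, the 8 with the largest Illumina falls and all 7 that were higher, as log2(CPM + 0.1) (y axis), for HCC827 (left points of each gene) and H1975 (right points), on Illumina above and ONT below; points are libraries and lines are means of 3. The 8 genes left of the dotted line, among them ZNF841 and ZNF114, lie lower in all HCC827 libraries, and the 7 right of it, among them ZNF574 and ZNF581, lie higher.

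Genes of known role were taken whatever their values. ZNF224, a KRAB repressor of the aldolase A gene, had 5.59, 4.31 and 5.79 CPM in HCC827 on Illumina, against 20.5, 19 and 19.6 CPM in H1975, a log2 fold of -1.86 ± 0.12. ZNF304, a KRAB protein linked to silencing of the INK4-ARF locus, had 12.2, 14.7 and 11.0 CPM in HCC827 against 28.0, 28.6 and 27.6 CPM in H1975. ZNF420, also called APAK and known as a negative regulator of p53, differed less, with 7.46, 6.06 and 5.79 CPM in HCC827 against 10.4, 10.7 and 10.2 CPM in H1975; its folds were -0.68 ± 0.12 on Illumina and -0.31 ± 0.17 on ONT, where it was not called. ZNF568, whose mouse counterpart represses a placental Igf2 transcript, had 2.07, 2.21 and 1.96 CPM in HCC827 against 7.99, 7.66 and 8.05 CPM in H1975. The folds of ZNF45 and ZNF180, both of the ZNF575 to ZNF296 run, were -2.13 ± 0.12 and -1.94 ± 0.14 on Illumina. ZNF507 did not separate the lines, with 22.2, 18.3 and 20.7 CPM in HCC827 against 20.03, 19.8 and 20.9 CPM in H1975. ZNF536, a repressor of neuronal differentiation, had 6, 1 and 1 Illumina counts in HCC827 and 4, 17 and 9 in H1975.

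Members with a KRAB pattern were more often lower in HCC827 than members without it. The rule did not use the pattern, but the group was proposed on this same line difference, so the split is a description only. A short KRAB pattern was found ahead of the first finger in 134 of the 164 genes, by translation of the canonical GENCODE transcript. On Illumina 124 of 134 tested genes with the pattern were lower in HCC827 and 6 higher (median log2 fold -1.56), while of 28 tested genes without it 10 were lower and 11 higher (median -0.04). On ONT 110 of 133 genes with the pattern were lower and 1 was higher (median -1.48), and of 29 without it 9 were lower and 8 higher (median 0.26). Position and pattern went together: the run ZNF175 to ZNF331 held the pattern in 39 of 40 genes, and the interval ZNF628 to ZNF835 in 6 of 16. Some members departed from the link between pattern and direction. ZNF83 and ZNF180, without the pattern but within runs of mostly lower genes, had Illumina log2 folds of -3.36 and -1.94. ZNF780A and ZNF792, with the pattern, had 0.51 and 1.21. How far position and the KRAB box each go with the fold was not tested. The pattern is short, and a gene without a match may still have a KRAB box.

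**Figure D4:**
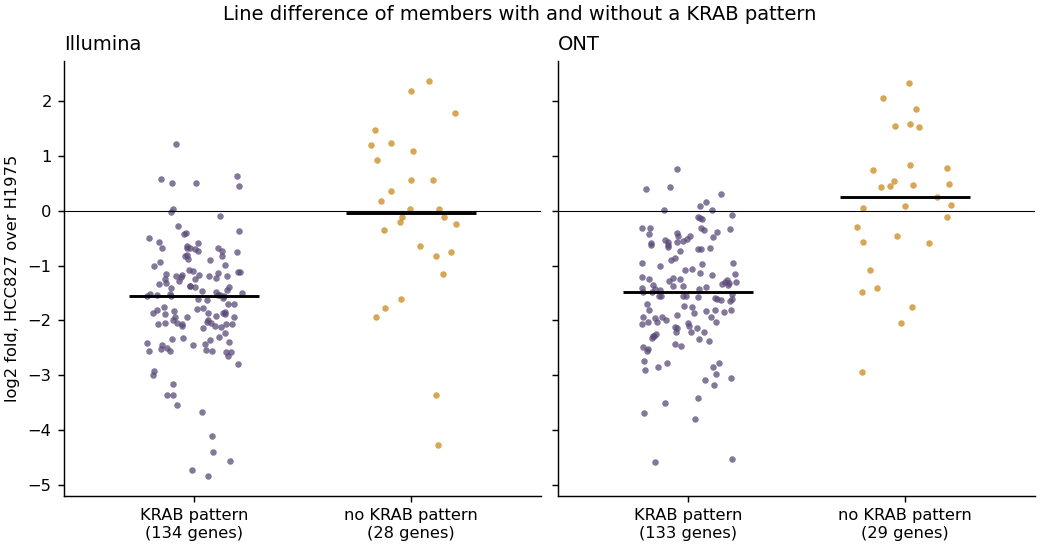
Log2 fold of HCC827 over H1975 (y axis) for genes with and without the KRAB pattern on Illumina (left) and ONT (right); points are genes, spread sideways at random, and black lines are medians. Genes with the pattern have medians of -1.56 and -1.48. Genes without it lie on both sides of 0, from -4.26 to 2.37 on Illumina, with medians of -0.04 and 0.26.

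Finger number was described in the same way. The 164 proteins held 0 to 29 fingers by a C2H2 pattern, with a median of 12 and the highest number in ZNF850. Among genes with the KRAB pattern the Illumina median log2 fold was -1.61 with up to 8 fingers, -1.52 with 9 to 13 and -1.73 with 14 or more. Among genes without it the medians were 0.37, -0.82 and -0.11 in the same order on Illumina, over 14, 7 and 7 genes, and 0.29, -0.58 and 0.43 on ONT. Across genes the Spearman correlation between finger number and the log2 fold was -0.17 on Illumina and -0.17 on ONT (n = 162 genes each); genes share libraries and ancestry and are not independent. Shared sequence was as weakly related, at -0.09 on Illumina between the fold and the percentage of 75-base words that recur in transcripts of other genes. On Illumina 73 of 93 genes with under 1% of such words were lower in HCC827 and 13 higher, and of 69 genes with more, 61 were lower and 4 higher. Of 42 genes that overlap no annotated gene, 35 were lower and 6 higher on Illumina, and on ONT 28 of 41 were lower and 2 higher.

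Genes of the silencing machinery that KRAB proteins recruit were listed as well. Of 21 listed genes 8 were higher and 9 lower in HCC827 on Illumina (median log2 fold 0.15), or 38.1% and 42.9%, near the 36.1% and 38.0% of all tested genes. On ONT 7 were higher and 5 lower (median 0.11), or 33.3% and 23.8%, against 31.1% and 31.6% of all tested genes. TRIM28 averaged 763 ± 149 CPM in HCC827 and 581 ± 30.9 CPM in H1975 on Illumina (SD, n = 3 each), a log2 fold of 0.39 ± 0.13 (edgeR adjusted p = 0.0149). Without HCC827 replicate 2 that fold was 0.28 and without H1975 replicate 2 it was 0.34, and neither was called. SETDB1 averaged 60.3 ± 9.53 CPM in HCC827 and 36.7 ± 1.13 CPM in H1975, a fold of 0.71 ± 0.11 (edgeR adjusted p = 5.02e-05). DNMT3A, a de novo DNA methyltransferase, was higher in HCC827 on both platforms (1.10 ± 0.11 on Illumina and 1.29 ± 0.17 on ONT), and UHRF1, which guides maintenance methylation, was lower on both (-1.96 ± 0.11 and -1.58 ± 0.18). TASOR, of the HUSH silencing complex, was lower as well (-1.31 ± 0.10 and -0.70 ± 0.14). Other listed genes went other ways. DNMT1, another DNA methyltransferase, was higher on both platforms (0.81 ± 0.10 and 0.69 ± 0.13), and PPHLN1 was lower on both (-0.42 ± 0.09 and -0.78 ± 0.13). DNMT3B (0.22 and 0.17) and MPHOSPH8 (0.16 and 0.11) were called on neither.

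The platforms did not always give the same size of difference. The difference between the lines was tested against itself across platforms, as the log2 fold on ONT minus that on Illumina, in 163 genes: it was called unequal in 25 of them, in 23 with HCC827 relatively higher on ONT and in 2 with HCC827 relatively lower, against 7.16%, 5.03% and 2.13% of all 29395 genes tested. The median over the group was 0.23 and over all genes 0.11. This all-gene shift depends on scaling: with another size factor (RLE) the all-gene fold moved by -0.11, and the median of the group was 0.12. Of the 42 members that overlap no annotated gene, 4 were called. The count was lower when an H1975 sample was left out: without H1975 replicate 1, 2 or 3 it was 15, 15 and 14.

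ZNF525 (chr19:53365693-53392217, plus strand), a KRAB gene with 8 fingers, gave the smallest p. It had 10.3, 8.98 and 9.14 CPM in HCC827 against 77.2, 74.1 and 78.3 CPM in H1975 on Illumina, but 4.36, 4.36 and 4.08 CPM in HCC827 against 7.11, 6.4 and 6.62 CPM in H1975 on ONT. The lines stood apart on both, and the ONT fold was smaller, with a fitted difference of 2.51 ± 0.17 on the log2 scale (edgeR adjusted p = 3.49e-08). ZNF765, which overlaps ZNF525 on the same strand, had 11.1, 11.3 and 9.0 CPM in HCC827 against 12.7, 14.0 and 12.6 CPM in H1975 on ONT, where it was not called, and a fold of -2.23 ± 0.12 on Illumina. ZNF749 had 6.54, 5.48 and 4.30 CPM in HCC827 against 15.0, 17.2 and 15.9 CPM in H1975 on Illumina, but 7.31, 5.34 and 7.33 CPM in HCC827 against 4.73, 4.89 and 5.49 CPM in H1975 on ONT. On ONT its libraries overlapped between the lines. The fitted difference between the platforms was 2.12 ± 0.23 (edgeR adjusted p = 7.89e-06). ZNF274, a KRAB protein that brings SETDB1 to the 3' ends of other ZNF genes, overlaps no gene and shares no 75-base word. It had 24.4, 22.3 and 23.6 CPM in HCC827 against 56.8, 57.6 and 62.1 CPM in H1975 on Illumina, but 9.27, 7.85 and 9.39 CPM in HCC827 against 10.9, 11.7 and 11.1 CPM in H1975 on ONT. The lines were separate on both platforms, and the fitted difference of the folds was 1.14 ± 0.17 (edgeR adjusted p = 0.000175).

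ZNF829 and ZNF345 were called in opposite directions on the platforms. ZNF829 (chr19:36888124-36916291, minus strand) had 5.59, 4.55 and 4.80 CPM in HCC827 against 9.17, 8.90 and 8.90 CPM in H1975 on Illumina, and 43.9, 30.0 and 34.5 CPM in HCC827 against 22.6, 20.2 and 21.0 CPM in H1975 on ONT. ZNF345 (chr19:36850361-36913029, plus strand) had nearly the same ONT values, 44.3, 30.3 and 34.8 CPM in HCC827 against 23.2, 20.6 and 21.6 CPM in H1975. HCC827 was lower on Illumina and higher on ONT for both, without overlap of the lines. The genes overlap each other on opposite strands, together with the pseudogene RPL31P61, and the sources used here do not say whether counting used the strand, so their ONT counts may come from the same reads. Their part in the result was not tested. ZNF577 and ZNF225 were the genes with the larger fall on ONT. The fitted difference was -1.13 ± 0.20 for ZNF577 (edgeR adjusted p = 0.00125) and -1.11 ± 0.26 for ZNF225 (edgeR adjusted p = 0.0129).

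**Figure D5:**
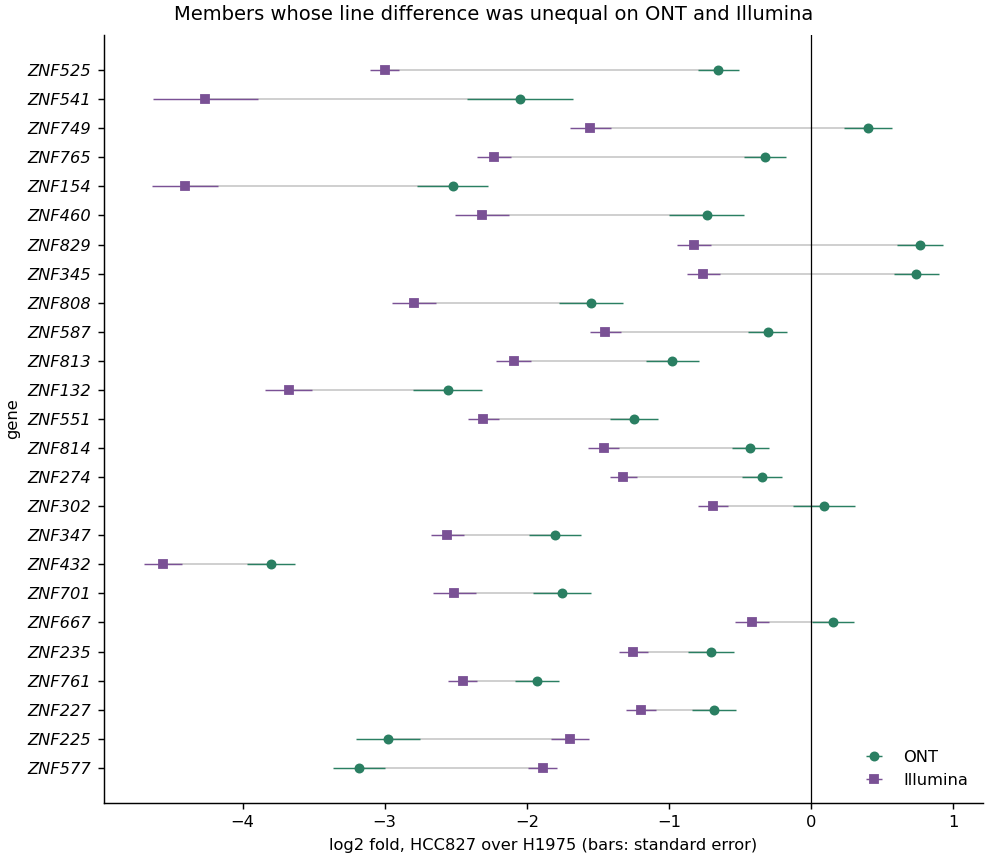
Log2 fold of HCC827 over H1975 (x axis) on ONT (circles) and Illumina (squares) for the 25 genes whose fold was called unequal on the 2 platforms; bars are standard errors and rows are sorted by the fitted difference. In 23 genes the ONT fold lies to the right of the Illumina fold, and in 5 of them, ZNF829, ZNF345, ZNF749, ZNF667 and ZNF302, it lies on the other side of 0.

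The level of these genes itself depended on the platform, a comparison on which the group was not proposed. With equal weight to each line, 113 of 163 genes were lower on ONT than on Illumina (background 39.1%) and 27 higher (background 44.2%), with 83.4% of all genes called either way. The median log2 ratio of ONT over Illumina was -0.88 in the group and 0.12 over all tested genes; over 84 ZNF genes of 19p it was -0.38, and over 249 ZNF genes of other chromosomes it was -0.93. ZNF805 had 0.140, 0.366 and 0.0847 CPM in HCC827 and 0.512, 0.608 and 0.655 CPM in H1975 on ONT, against 6.91, 4.78 and 4.97 CPM in HCC827 and 23.7, 24.98 and 21.1 CPM in H1975 on Illumina. ONT was lower in both lines without overlap, with a log2 ratio of -3.57 ± 0.19 (edgeR adjusted p = 2.07e-12). ZNF507, ZNF615 and ZNF865 followed, at -3.12 ± 0.13, -3.06 ± 0.12 and -2.80 ± 0.13. At the other end stood ZNF829 and ZNF345, at 3.53 ± 0.11 and 3.35 ± 0.11, then ZNF575, at 3.34 ± 0.13, and ZNF547, at 2.68 ± 0.12. All 4 of these overlap another gene, and their part in the result was not tested. Without HCC827 replicate 2 the platform ratio of all genes shifted by -0.15.

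Near-equal counts were seen in other overlapping neighbours too. ZNF146 (chr19:36214602-36238771, plus strand), a protein made almost wholly of fingers, lies inside ZNF565 (chr19:36182276-36246257, minus strand). ZNF146 had 46.3, 51.4 and 55.3 CPM in HCC827 against 85.2, 91.5 and 93.8 CPM in H1975 on Illumina, and ZNF565 had 48.3, 52.8 and 57.1 CPM in HCC827 against 86.8, 92.9 and 95.3 CPM in H1975. On PacBio both had 5, 4 and 3 counts in HCC827 and 11, 11 and 8 counts in H1975, library by library the same. Whether these counts come from shared reads was not tested.

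PacBio depth let few members be seen. Only ZNF28 and ZNF468 passed the filter, and both were called lower in HCC827 (background 11.4% in each direction and 22.9% either way, of 901 genes tested). Both passed through their H1975 counts, so the filter itself favoured members lower in HCC827. Nothing is read from the direction of these calls. ZNF28 (chr19:52797408-52857600, minus strand) had 10, 6 and 0 counts in HCC827 against 22, 34 and 29 counts in H1975. ZNF468 (chr19:52838010-52857649, minus strand), which overlaps it on the same strand, had 7, 4 and 0 counts in HCC827 against 16, 24 and 18 counts in H1975. The lines did not overlap, and HCC827 replicate 3, the library that stood apart, had no count of either gene and 1 count over the 40 genes of the run ZNF175 to ZNF331. When libraries closer than sampling noise were counted as 1 sample, neither was called. There were 4 called members without HCC827 replicate 3 and 4 without H1975 replicate 1, but 0 without HCC827 replicate 2, H1975 replicate 2 or H1975 replicate 3. On Illumina ZNF28 had 40.7, 36.3 and 37.1 CPM in HCC827 against 149, 143 and 145 CPM in H1975. Of 137 members with any PacBio count, 111 had fewer counts over the HCC827 libraries than over the H1975 libraries, 16 had more and 10 had equal sums, with no scaling for depth. The shares over all PacBio genes were not counted, so nothing is read from these numbers of members. ZNF574 had 4, 4 and 2 counts in HCC827 against 1, 2 and 2 in H1975, and ZNF581 had 3, 3 and 3 against 2, 1 and 1. Among the members with the most counts, ZNF135 had 5, 5 and 5 counts in HCC827 against 12, 13 and 9 in H1975, ZNF582 had 3, 1 and 0 against 8, 15 and 10, and ZNF134 had 4, 1 and 1 against 7, 9 and 10. ZNF841, 1 of the genes with the deepest fall on the other platforms, had 0 counts in all 3 HCC827 libraries, where a count of 0 allows up to 55.2 to 79.4 CPM, depending on the library, against 4, 12 and 9 counts in H1975.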

How the data were processed

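Gene counts came from 18 libraries. The authors deposited raw whole-number counts per gene for each library, and the submitters' processing notes name GRCh38, minimap2 2.17 and featureCounts. Strand use, the handling of multi-mapped reads and the annotation are not given in the sources used. Per the file headers, PacBio counts came from clustered sequences. Intervals, floors and sampling noise on PacBio treat each count as a single independent read. Since strand use is not stated, 122 of the 164 genes, whose bodies overlap another annotated gene (72 of them on the same strand), have uncertain counts.

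Spike-in RNAs were left out, 45 second copies of X and Y genes were added to the X copy, and Ensembl identifiers without version were matched to GENCODE release 44 (60357 of 60617 identifiers on Illumina, 58207 of 58676 in the long-read files). The members and gene lists were chosen with earlier results of these data known. CPM values of single genes are scaled to effective library sizes; summed levels are CPM of all gene counts. Line differences (HCC827 over H1975) were fitted within each platform, and platform ratios and the difference of line differences on the 12 ONT and Illumina libraries, with edgeR 4.0.16 under R 4.3.3 (TMM scaling, filterByExpr, robust quasi-likelihood test, two-sided, Benjamini-Hochberg over all tested genes, called below 0.05). Standard errors were derived from each fold and its F statistic. The fit was also run on simulated counts with the same dispersion for every gene in both lines. The Illumina step (25171 genes) recovered 77 of 98 genes changed by 1 on the log2 scale and 99 of 100 changed by 2, with 3 false calls. The ONT step (26904 genes) recovered 86 of 99 and 100 of 100, with 7 false calls. Real HCC827 libraries varied more than H1975 libraries, so these rates may not hold for the data.

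Alternatives were RLE size factors, DESeq2 1.42.0, limma-voom (limma 3.58.1), no filter, a replicate block, each replicate left out, members without overlap, a 500000-base gap for runs, and for PacBio the close libraries summed. Same-numbered libraries of the 2 lines were treated as sharing only a number (correlation of deviations -0.14 to 0.11 on Illumina and ONT). The same RNA samples were sequenced on every platform, so the block pairs platforms. Yet between Illumina and ONT same-numbered correlations were small too, at 0.00237 to 0.0567 in H1975 and 0.103 to 0.216 in HCC827. The correlations therefore cannot show whether the lines were paired. P-values of line differences within a platform measure the spread among 3 cultures per line. In the main fit, platform ratios and the difference of line differences used no block, so libraries of the same RNA sample counted as independent. The p-values of these comparisons between platforms therefore mix the spread among cultures with that between libraries of the same sample. Intervals and floors (3 counts) cover counting error only. Genes were named by a rule: largest folds called alike on Illumina and ONT, highest level per kilobase, opposite calls, smallest p of the platform difference, extreme platform ratios, 10 or more PacBio counts, and known role; ZNF677, ZNF577, ZNF225, the edge genes and the genes of the lists given by value were added after their values were seen. Finger counts and the KRAB pattern came from translated canonical GENCODE transcripts, since no RefSeq proteins were used, and shared 75-base words from GENCODE transcripts.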

Additional observations from a re-analysis of the deposited data

Results flagged for a closer look

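In 25 genes the test of the difference itself found the line difference unequal on ONT and Illumina (edgeR, adjusted over all genes); each value below is the log2 fold of HCC827 over H1975 on ONT minus that on Illumina. The difference reached 2.51 in ZNF525, 2.37 in ZNF541, 2.12 in ZNF749, 2.09 in ZNF765 and 2.06 in ZNF154. It was 1.75 in ZNF829, 1.75 in ZNF460, 1.67 in ZNF345, 1.40 in ZNF808, 1.30 in ZNF587, 1.29 in ZNF813 and 1.28 in ZNF132. It was 1.22 in ZNF551, 1.19 in ZNF814, 1.14 in ZNF274, 0.94 in ZNF302, 0.93 in ZNF347, 0.93 in ZNF432 and 0.92 in ZNF701. It was smallest in ZNF667 (0.74), ZNF235 (0.71), ZNF761 (0.69) and ZNF227 (0.68). ZNF577 (-1.13) and ZNF225 (-1.11) had the opposite sign.

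Of these 25 genes, ZNF541, ZNF132, ZNF274 and ZNF302 overlap no annotated gene, and the other 21 do; the part of overlapping genes in these differences was not tested. ZNF154 had 1.01, 0.350 and 0.406 CPM in HCC827 on Illumina against 0.280, 0.225 and 0.198 CPM on ONT, so both folds rest on low levels in that line. ZNF587 and ZNF814, which overlap on opposite strands, had close differences of 1.30 and 1.19.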

How the results depend on the processing

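The counts of called members moved by less than 1.5 times under RLE size factors, DESeq2, limma-voom and no filter on Illumina, on ONT, for the platform ratio and for the unequal line differences. For the unequal differences these 4 settings gave 21 (RLE), 25 (DESeq2), 25 (limma-voom) and 31 (no filter). Restricting the group to members without overlap left fewer genes to call: 41 on Illumina (35 lower and 6 higher in HCC827), 30 on ONT (28 lower and 2 higher), 4 unequal between platforms (4 higher and 0 lower on ONT), and 38 with a platform ratio (35 lower and 3 higher on ONT). PacBio calls, 2 in the report, were 7 with DESeq2, 34 with no filter and 0 with close libraries summed. The medians of the run ZNF628 to ZNF446 became -0.11 on Illumina and 0.16 on ONT when a gap of 500000 bases ended a run, since the run then holds its first 16 members.

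With the replicate number as a block the counts were 151 on Illumina, 126 on ONT and 1 on PacBio; with the RNA sample as a block they were 35 unequal differences (32 higher, 3 lower on ONT) and 144 platform ratios. The numbers were taken to pair platforms and not lines, and on PacBio the correlations of same-numbered deviations between the lines were -0.54, 0.24 and -0.53. Leaving out each replicate gave 148 to 151 calls on Illumina (133 to 134 lower, 15 to 17 higher), 117 to 131 on ONT (108 to 121 lower, 9 to 11 higher), 0 to 4 on PacBio, 14 to 32 unequal differences (13 to 28 higher, 1 to 4 lower on ONT) and 137 to 145 platform ratios (110 to 120 lower, 25 to 30 higher).

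Among named genes 977 refitted values kept direction and call, 16 lost the call and 6 gained it. ZNF507, not called, changed sign on Illumina: with single replicates left out its log2 fold ran from -0.0236 to 0.0989, below 0 without HCC827 replicate 1 and without H1975 replicate 2 (-0.000275); the cause was not tested. The ONT calls of ZNF146 and ZNF565 were lost when most single libraries were left out, and that of ZNF579 with no filter. PacBio depth limits that platform to 2 of 164 members, and the 10020699 counts of Illumina HCC827 replicate 2 put its floor at 0.299 CPM.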
